A study of Rattus norvegicus with 6 samples.

Results

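5 genes of fatty acid synthesis were followed in BRIN-BD11 cells, an insulin-secreting rat beta cell line, after treatment with MS-275 (entinostat), which inhibits class I histone deacetylases. The 5 members are Srebf1, Acly, Acaca, Fasn and Scd, chosen by identifier and pathway role out of 22250 genes in the deposited count tables. The rule uses no measured value, but the list was drawn up with earlier results of these data known. Their Rnor_6.0 Ensembl identifiers are ENSRNOG00000003463, ENSRNOG00000016924, ENSRNOG00000034013, ENSRNOG00000045636 and ENSRNOG00000013552, in that order. The tables list identifiers alone, so the symbols rest on the list that named the members and were not checked here against an annotation. BRIN-BD11 was made by electrofusion of RINm5F cells with islet cells of the NEDH rat, and all 6 libraries came from cells at passage 25. The control group, titled WT, comprised 3 libraries without HDAC inhibitor, and the treated group comprised 3 libraries from cells given 5 µM MS-275 in 0.1% DMSO for 16 h. The study describes its controls as DMSO-treated, at a lower DMSO concentration than the labels give for MS-275. The labels give no vehicle for the controls. If both statements hold, an effect of the DMSO concentration could not be told apart from that of MS-275. The replicates are numbered repeats of 1 cell line, and nothing states whether they were separate cultures, so the p-values below measure the spread between these libraries, which may be technical.

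Fatty acid synthesis turns carbon from glucose into palmitate and then into longer or unsaturated fatty acids. Citrate leaves the mitochondrion and is cleaved to acetyl-CoA by ATP citrate lyase (Acly), acetyl-CoA carboxylase 1 (Acaca) makes malonyl-CoA, fatty acid synthase (Fasn) builds palmitate, and stearoyl-CoA desaturase (Scd) introduces a double bond. Srebf1 encodes the sterol regulatory element-binding proteins SREBP-1a and SREBP-1c, membrane-bound transcription factors that, once cleaved, activate the genes of these enzymes. In beta cells malonyl-CoA is also known as a brake on the entry of fatty acids into mitochondria for oxidation.

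The proximal promoters of the members are shown to place the genes on the genome and to show that Srebf1 has more than 1 annotated start. Each sequence is the 250 bases before a transcription start, from RefSeq on the assembly GRCr8, whereas the reads were counted on Rnor_6.0, and is written in the direction of transcription. Capitals mark the GC box GGGCGG and the CCAAT box CCAAT, on either strand. Of the 5 members, Srebf1, Acly and Scd were found in the promoter table, Srebf1 with 2 starts. The Srebf1 windows lie at chr10:45529165-45529414 and chr10:45519011-45519260, that of Acly at chr10:85963632-85963881 and that of Scd at chr1:253231732-253231981, all on the minus strand.
Srebf1, upstream start: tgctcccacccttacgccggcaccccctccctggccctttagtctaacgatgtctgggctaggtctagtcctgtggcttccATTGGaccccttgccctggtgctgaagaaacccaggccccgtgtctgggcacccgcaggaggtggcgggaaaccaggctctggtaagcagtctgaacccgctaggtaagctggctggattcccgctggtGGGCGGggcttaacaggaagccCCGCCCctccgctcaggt
Srebf1, downstream start: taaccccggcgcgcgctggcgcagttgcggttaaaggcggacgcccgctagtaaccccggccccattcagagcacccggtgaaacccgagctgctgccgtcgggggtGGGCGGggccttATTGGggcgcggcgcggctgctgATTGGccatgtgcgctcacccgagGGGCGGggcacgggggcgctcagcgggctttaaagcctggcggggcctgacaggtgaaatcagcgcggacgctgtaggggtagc
Acly: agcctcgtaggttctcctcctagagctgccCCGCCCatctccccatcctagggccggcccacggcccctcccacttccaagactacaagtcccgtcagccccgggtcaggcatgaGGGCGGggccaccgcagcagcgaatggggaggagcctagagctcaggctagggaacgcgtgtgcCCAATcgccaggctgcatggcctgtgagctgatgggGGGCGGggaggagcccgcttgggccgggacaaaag
Scd: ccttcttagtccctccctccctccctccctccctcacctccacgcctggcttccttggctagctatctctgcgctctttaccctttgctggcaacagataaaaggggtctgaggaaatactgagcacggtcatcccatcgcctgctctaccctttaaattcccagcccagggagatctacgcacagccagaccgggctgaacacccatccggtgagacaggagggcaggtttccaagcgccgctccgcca
The upstream Srebf1 window held 2 GC boxes and 1 CCAAT box, and the downstream window held 2 of each. The Acly window held 3 GC boxes and 1 CCAAT box. In the Scd window neither box was found. Over all 33469 promoter windows of this length, 30.5% held a GC box and 34% a CCAAT box. The sterol regulatory element TCACNCCAC was present in none of the 4 windows and in 0.974% of all windows. The E-box CANNTG was found in the downstream Srebf1 window alone among the 4, at 3 places, and in 65.5% of all windows. These are matches of letters, not sites of binding. Variants of a motif were not searched, so a window without a match may still hold such an element. The count tables hold 1 value for Srebf1, so reads from its annotated starts could not be told apart, and which start these cells use was not tested.

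The comparison asked how MS-275 changed the RNA of each member. Fasn fell, Srebf1 and Acaca rose by 13.6% and 17.5% of their control mean, Acly did not pass the test, and Scd was hardly detected. Levels are given as CPM, the counts on a gene scaled to the library total with TMM factors. Differences were taken from edgeR's quasi-likelihood test, fitted over the 12596 genes with enough counts. 4 members passed the filter on low counts and Scd did not. Fasn was the 1 member called lower and Srebf1 and Acaca were the 2 called higher, at an adjusted p-value under 0.05. With library sizes alone in place of TMM, 0 members were called higher and 1 lower. Among all tested genes 31.5% were called lower, 32.1% higher and 63.6% in either direction, so 3 of 4 tested members lies near the share of all genes. None of the 4 tested members reached an absolute log2 fold change of 1, which 19.1% of the tested genes did with an adjusted p-value under 0.05. The median absolute log2 fold change was 0.21 over the 4 tested members and 0.46 over all tested genes.

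**Figure D1:**
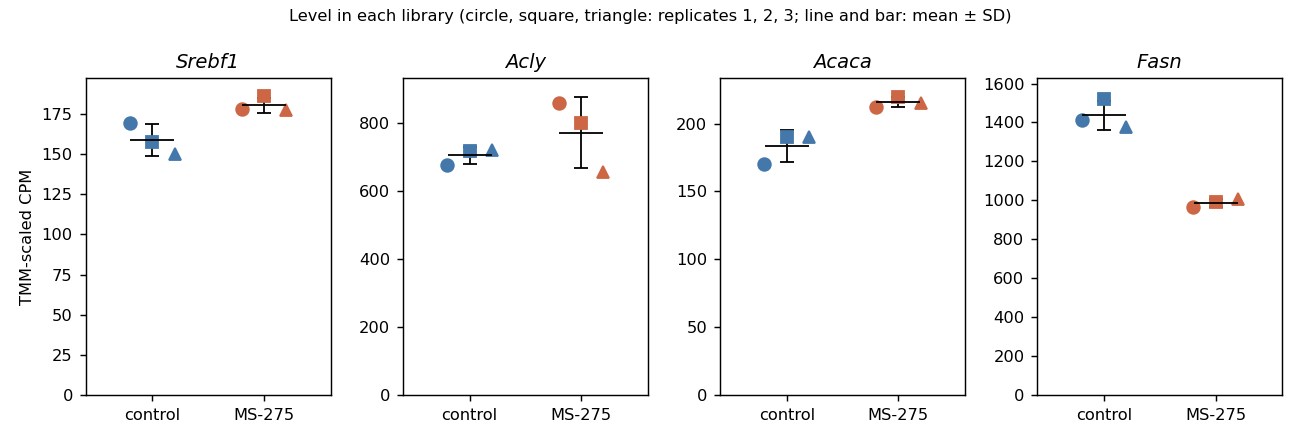
TMM-scaled CPM (y axis, from 0) of Srebf1, Acly, Acaca and Fasn in the 3 control (blue) and 3 MS-275 (orange) libraries, each point 1 library and the line and bar the mean ± SD. Fasn lay between 1378 and 1521 CPM in the controls and between 964 and 1004 with MS-275, whereas the Acly libraries of the groups overlapped because MS-275 replicate 3 was at 654.

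Srebf1, the transcription factor of the group, had 1347, 1282 and 866 counts in the controls and 966, 948 and 1586 counts with MS-275, here and below in the order of replicates 1 to 3. Scaled for library size with TMM factors, these were 169, 158 and 150 CPM in the controls and 178, 186 and 177 CPM with MS-275. Every MS-275 library was above every control, though control replicate 1 and MS-275 replicate 3 were separated by less than the spread among the controls. This order rested on the TMM factors. By library totals alone, MS-275 replicates 1 and 3 were below control replicate 1. The level went from 159 ± 9.89 CPM (SD, n = 3) to 181 ± 4.71 (SD, n = 3), a log2 fold change of 0.18 (standard error 0.08, 95% interval 0.02 to 0.35). Its adjusted p was 0.0492 in edgeR's quasi-likelihood test, close to the threshold. In 6 of 13 alternative settings it was above the threshold, among them the fits without control replicate 2 (adjusted p = 0.146 from edgeR), control replicate 3 (0.196) and MS-275 replicate 2 (0.141). Of all tested genes, 78.1% had a larger absolute log2 fold change than Srebf1.

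Acly, which supplies cytosolic acetyl-CoA, had counts of 5366, 5843 and 4163 in the controls and of 4638, 4079 and 5851 with MS-275. These corresponded to 675, 718 and 720 CPM in the controls and to 857, 800 and 654 CPM with MS-275. MS-275 replicates 1 and 2 were above all controls and MS-275 replicate 3 was below all of them. The control mean was 705 ± 25.5 CPM (SD, n = 3) against 770 ± 105 (SD, n = 3) for MS-275, and the coefficient of variation was 3.62% in the controls and 13.6% with MS-275. The log2 fold change was 0.13 (standard error 0.09, 95% interval -0.07 to 0.32), which edgeR gave an adjusted p of 0.237. When MS-275 replicate 3 was left out it was 0.23 with an adjusted p of 0.00947 from edgeR. With all 6 libraries and upper-quartile scaling it was 0.22 with an adjusted p of 0.0484 from edgeR, so the call of Acly turned on this library and on the scaling. MS-275 replicate 3 was also the deepest library, with 9172422 counts on genes against 5536188 and 5230555 in the other two treated libraries, and the part of depth in its low Acly value was not tested.

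Acaca, which carries out the committed step to malonyl-CoA, had counts of 1353, 1548 and 1099 in the controls and of 1149, 1120 and 1924 with MS-275. The scaled values were 170, 190 and 190 CPM in the controls and 212, 220 and 215 CPM with MS-275. All 3 MS-275 libraries were above all 3 controls, and they lay closer together than the controls did. The level rose from 184 ± 11.5 CPM (SD, n = 3) to 216 ± 3.78 (SD, n = 3), which is 17.5% above the control mean. The log2 fold change was 0.23 (standard error 0.08, 95% interval 0.07 to 0.40), with an edgeR adjusted p of 0.0141. It lost the call without control replicate 1 (adjusted p = 0.0583 from edgeR), without MS-275 replicate 2 (0.0526) and with library sizes alone (0.0598).

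Fasn, the enzyme that assembles palmitate, had counts of 11211, 12377 and 7963 in the controls and of 5221, 5041 and 8984 with MS-275. These were 1411, 1521 and 1378 CPM in the controls and 964, 989 and 1004 CPM with MS-275. The lowest control was far above the highest MS-275 library, and the treated libraries varied little among themselves. The level fell by 31.4%, from 1436 ± 75.0 CPM (SD, n = 3) to 986 ± 20.2 (SD, n = 3). The log2 fold change was -0.54 (standard error 0.07, 95% interval -0.70 to -0.39), a 1.46-fold decrease, with an adjusted p of 1.16e-05 in edgeR's quasi-likelihood test. Fasn was called lower in all 13 alternative settings, with log2 fold changes between -0.61 and -0.45. By CPM, which is not corrected for gene length, Fasn ranked 29 among all genes in the controls and 67 with MS-275, whereas Acly ranked 112 and 111. Of all tested genes, 18.6% had a log2 fold change below that of Fasn. CPM is a share of the RNA sequenced in bulk, and fewer cells with Fasn RNA could not be told apart from less Fasn RNA per cell.

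The row named Scd, the desaturase, had counts of 2, 3 and 2 in the controls and of 0, 3 and 3 with MS-275. Every library was at or under 3 counts, the floor used here, which corresponds to between 0.335 and 0.589 CPM over the 6 libraries. Both groups being at the floor, no fold change is given, and a difference was not detectable at this depth. With genes of low counts retained, edgeR gave Scd an adjusted p of 0.959. In RefSeq the genes Scd4 and Scd2 neighbour Scd on the same chromosome, and Scd is also listed as a synonym of Scd2. Reads placed in more than 1 position were left out of the gene counts. They made up between 7.95% and 8.19% of the alignments of a control library and between 8.70% and 9.19% with MS-275. How many of them belong to the Scd family was not analysed here, so the value is uncertain where near-identical copies share reads. Which gene of the family this identifier stands for was not checked here, and the Scd promoter above was matched by symbol.

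Exact permutation tests over the libraries gave p = 0.1 (two-sided) for Srebf1, Acaca and Fasn, the smallest p that 3 libraries against 3 allow, and p = 0.4 for Acly. In TMM-scaled CPM the libraries of the groups did not overlap in these 3 members, as in 68.1% of all tested genes. By library totals alone those of Srebf1 overlapped, so its permutation p of 0.1 also rested on the TMM factors.

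**Figure D2:**
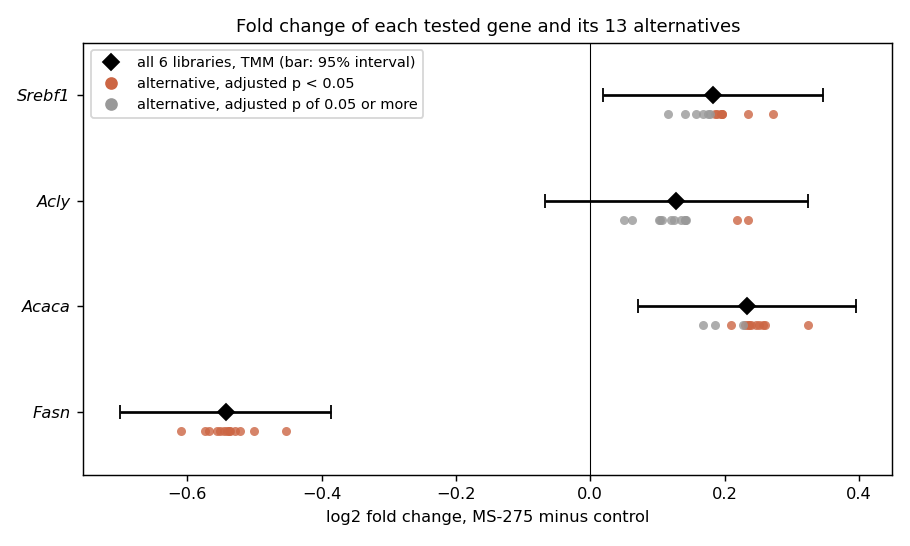
Log2 fold change (x axis, MS-275 minus control) of the 4 tested genes, with all 6 libraries (diamond, bar: 95% interval) and under 13 alternatives of scaling, filter, test or library set (dots, orange where the adjusted p was under 0.05 and grey otherwise). Fasn lay left of 0 with all dots orange, and the other 3 genes lay right of 0 with dots of both colours.

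Whether the members changed by the same amount was followed in ratios of their counts within a library, which do not depend on library scaling. The ratio of Acaca to Fasn counts was 0.121, 0.125 and 0.138 in the controls and 0.220, 0.222 and 0.214 with MS-275. The MS-275 values were all above the controls, and the ratio was 1.71-fold higher with MS-275. The ratio of Srebf1 to Fasn was 0.120, 0.104 and 0.109 in the controls and 0.185, 0.188 and 0.177 with MS-275, 1.66-fold higher for the factor relative to this enzyme. The ratio of Acly to Fasn went from 0.479, 0.472 and 0.523 to 0.888, 0.809 and 0.651, which was 1.58-fold higher. MS-275 replicate 3 was nearest to the controls in all 3 ratios to Fasn, and the groups did not overlap in any of them.

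Among Srebf1, Acly and Acaca, the ratios of the groups overlapped. The log2 ratio of Srebf1 to Acaca differed by -0.05, that of Srebf1 to Acly by 0.07 and that of Acly to Acaca by -0.11 between MS-275 and control. Single libraries set the size of these differences, and the sign of both with Srebf1. That of Srebf1 to Acaca was 0.05 without control replicate 1, -0.08 without control replicate 2 and -0.12 without control replicate 3. That of Srebf1 to Acly was -0.04 without MS-275 replicate 3, 0.15 without MS-275 replicate 1, 0.14 without control replicate 1 and 0.01 without control replicate 3. That of Acly to Acaca was -0.003 without MS-275 replicate 3 and -0.21 without MS-275 replicate 1. In the controls the log2 ratio of Srebf1 to Acaca had an SD of 0.18 (n = 3) and with MS-275 an SD of 0.02 (n = 3). Of the 6 pairs compared, the 3 with Fasn had an exact permutation p of 0.1 (two-sided, 0.2 after Benjamini-Hochberg adjustment over the 6 pairs), and the other 3 had p between 0.5 and 0.9 (adjusted, 0.72 to 0.9). Since 0.1 is the smallest p of this design, none of the 6 differences could pass the threshold. The 95% interval of the log2 fold change of Fasn (-0.70 to -0.39) did not overlap those of Srebf1, Acly and Acaca, which reached down to 0.02, -0.07 and 0.07. Pairs with Scd were not compared because of its counts at the floor.

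**Figure D3:**
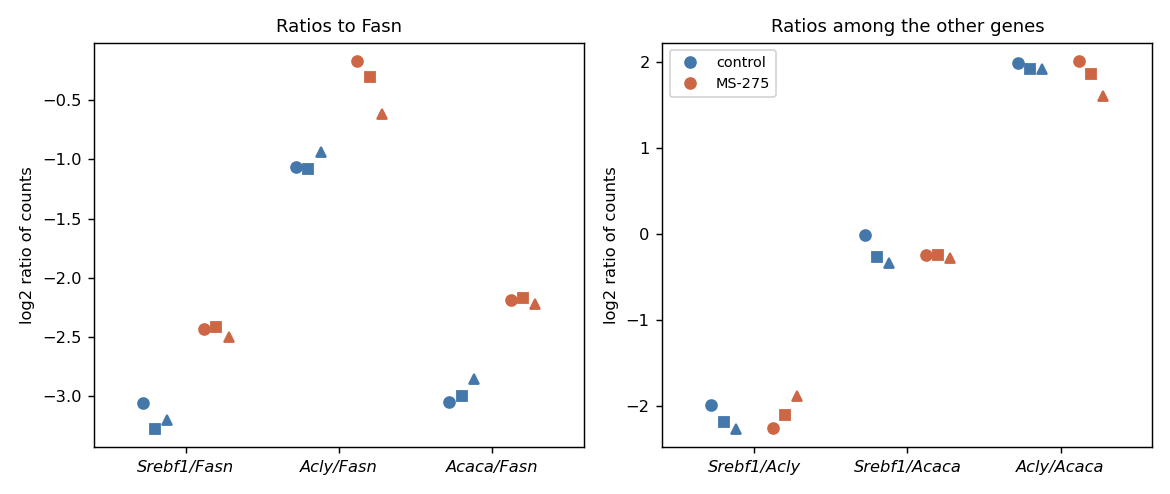
Log2 ratio of the counts of 2 genes in the same library (y axis) for the 3 pairs with Fasn (left) and the 3 pairs without it (right), each point 1 of 3 control (blue) or 3 MS-275 (orange) libraries, with circles, squares and triangles for replicates 1, 2 and 3. The groups are apart in the 3 pairs with Fasn and overlap in the 3 others.

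Taking the counts on the 5 members as a whole, Fasn held 58.2%, 58.8% and 56.5% of them in the controls and 43.6%, 45.0% and 49.0% with MS-275. The Fasn share was lower in every treated library, and the means were 57.8% ± 1.18 (SD, n = 3) without and 45.9% ± 2.77 (SD, n = 3) with treatment. Acly went from 28.4% ± 1.01 (SD, n = 3) of the member counts to 35.7% ± 3.48 (SD, n = 3). Acaca went from 7.39% ± 0.391 (SD, n = 3) to 10.0% ± 0.446 (SD, n = 3), and Srebf1 from 6.41% ± 0.503 (SD, n = 3) to 8.39% ± 0.296 (SD, n = 3). Shares of 1 total move against each other, so the higher shares of these 3 genes are in part the lower share of Fasn. The summed level of the members went from 2484 ± 89.7 CPM (SD, n = 3) to 2153 ± 88.3 (SD, n = 3). All 3 treated libraries, between 2051 and 2212 CPM, were below all 3 controls, between 2426 and 2587 CPM. This difference of -331 CPM is smaller than that of Fasn alone, which was -451 CPM.

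**Figure D4:**
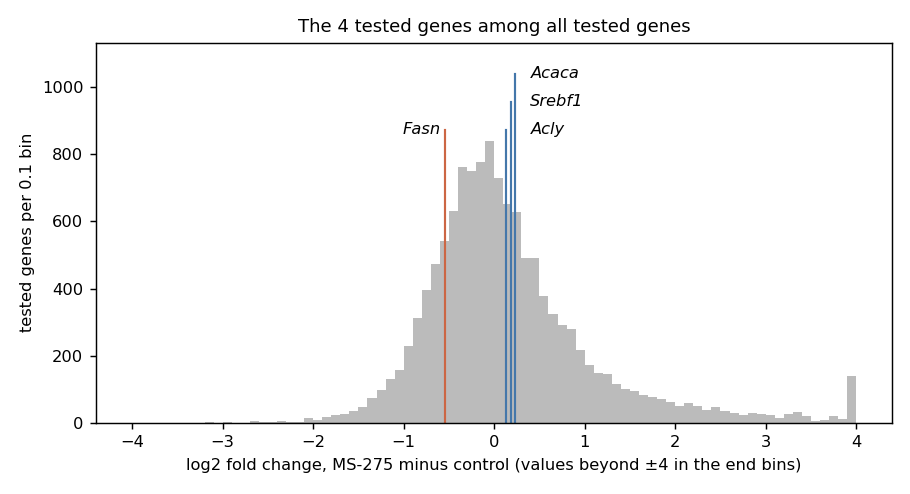
Number of tested genes (y axis, grey bars, bins of 0.1) by log2 fold change (x axis, MS-275 minus control), with vertical lines at the 4 tested members. Fasn at -0.54 lay in the lower flank of the distribution, and Acly, Srebf1 and Acaca between 0.13 and 0.23 lay near its centre.

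By the smallest distance between centred log2 CPM over the 6 libraries, the gene with the pattern most like the mean of Srebf1 and Acaca was ENSRNOG00000023910, out of 9913 other genes averaging 10 CPM or more. It had 438, 444 and 423 CPM in the controls and 499, 512 and 483 CPM with MS-275, at a distance of 0.05 on the log2 scale. The gene most like Fasn was ENSRNOG00000017340, with 26.7, 30.1 and 27.3 CPM in the controls and 18.8, 20.0 and 20.0 CPM with MS-275, at a distance of 0.07. Both genes are given by identifier, since no name is paired with them here.

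Depth ranged from 5230555 to 9172422 counts on genes per library. These were 30.7% to 31.4% of the alignments each table accounts for in the controls and 29.2% to 30.2% with MS-275. The TMM factors were 1.03, 1.02 and 1.02 in the controls and 0.980, 0.976 and 0.977 with MS-275. They thus raised MS-275 relative to control for every gene. With library sizes alone the log2 fold change was 0.12 for Srebf1, 0.17 for Acaca and -0.61 for Fasn, against 0.18, 0.23 and -0.54 with TMM. No 2 replicates were copies of 1 library, since their chi-square per degree of freedom was 1.78 to 10.8, highest for MS-275 replicates 1 and 3. Markers of beta cells and of other cell types, and other genes of lipid synthesis, sterol synthesis and fatty acid oxidation, were not analysed here, since no name is paired with their identifiers.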

How the data were processed

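RNA of 3 control and 3 MS-275-treated BRIN-BD11 libraries was sequenced as paired-end reads. Contaminating reads were removed by bowtie2 mapping, STAR was used to align to Rnor_6.0, and the authors deposited unnormalised counts per Ensembl gene. The labels also name Trimmomatic. The counter is given as featureCounts, but each table closes with 5 htseq-count summary lines, which name no gene and hold between 68.6% and 70.8% of the alignments. These lines stayed out of library sizes and tests. Most of the alignments in them fell on no annotated gene, at 60.2% to 61.9% of the alignments of a library. The reason for this share was not tested. Strandedness and the annotation release are not given in the sources used here, so antisense reads could not be told apart. A table of the authors' own comparison (group means, fold changes, p-values) was not used.

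In R 4.3.3 with edgeR 4.0.16, low counts were removed with filterByExpr, TMM factors were computed and a robust quasi-likelihood model without a block was fitted, with Benjamini-Hochberg adjustment over all 12596 genes. A standard error is the log2 fold change divided by the square root of F. Gene names were taken from the list of members. That list, the promoter motifs and the tests were chosen with earlier results of these data known. The named genes were to be the 5 members, genes of fixed pathway lists, which were not run, and the nearest gene by pattern in each direction. The alternatives were 3 other scalings, DESeq2 1.42.0, 2 other filters, the replicate number as a block, each library left out, and a threshold of 1 on the log2 fold change. Counts were tested on simulated data with 12104 genes tested. There edgeR recovered 37 of 50 genes changed 1.5-fold and 48 of 50 changed 2-fold, with 7 false calls. The simulation used the same dispersion for every gene and changed far fewer genes than the 63.6% called in the data. Its smallest change was 1.5-fold, whereas Fasn fell 1.46-fold and the other tested members changed by less. These numbers therefore do not measure how well changes of the members' size are recovered. A floor of 3 counts covers counting error only.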

Additional observations from a re-analysis of the deposited data

How the results depend on the processing

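The directions of Srebf1, Acly, Acaca and Fasn were the same in all 13 alternatives of scaling, test, filter, block and library set, and Fasn was called in each (adjusted p at most 0.000435, edgeR or DESeq2). Srebf1 lost its call with library sizes alone (log2 fold change 0.12), with DESeq2 (0.18) and without a low-count filter (0.16), and ranged from 0.14 to 0.24 with each library left out. Acaca lost it with library sizes alone (0.17) and ranged from 0.19 to 0.26 with each library left out. Acly gained a call with upper-quartile scaling (0.22, adjusted p = 0.0484 from edgeR) and ranged from 0.051 to 0.23 with each library left out. The number of members called higher was 0 with library sizes alone, 1 with DESeq2, 1 without a low-count filter and between 0 and 3 with each library left out. With a log2 fold change of 1 or more in size also required it was 0, as was the number called lower, against 1754 higher and 650 lower among all genes in place of 4039 and 3966. By construction the stricter threshold leaves fewer calls. Library sizes alone drop the TMM factors, which had raised MS-275 relative to control for every gene. The causes of the other changes were not tested.

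Over all tested genes the median log2 fold change was -0.01 under TMM, -0.08 under library sizes and 0.08 under upper-quartile factors, and 0.12 over the 16846 genes of the DESeq2 fit, which had no low-count filter. The correlations of the deviations of libraries that share a number were mixed, at 0.16, -0.02 and 0.13, so the numbers were not taken to pair the libraries, and 3 of 6 libraries correlated best with their own number. With the replicate number as a block, Srebf1 was at 0.19, Acly at 0.12, Acaca at 0.23 and Fasn at -0.54, with 4142 genes called higher and 4113 lower and no member call changed. With each library left out, the differences in log2 ratio to Fasn stayed between 0.57 and 0.83, whereas those among Srebf1, Acly and Acaca changed size and, for Srebf1 to Acaca and Srebf1 to Acly, sign. Adding 0.5 counts moved none of the 6 differences at 2 decimals. Depth limits Scd, which stayed at or under 3 counts in every library.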
